A study of Rattus norvegicus with 35 samples.

Results

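The macrophage genes examined in the rat olfactory epithelium were Cd68, Cd163, Csf1r, Cd14, Mrc1, Aif1, Fcgr2b, Tyrobp, Marco and Lgals3. They were chosen by name: a probe belonged to the group when its gene name on the array was one of these 10 symbols, or its description gave the symbol in brackets. This rule found 14 of the 41012 probes, for 9 of the 10 genes. Marco was found by no symbol, and 1 probe named LOC367391 was paired with it by its gene number in the RefSeq table of rat genes. The microarray study compared the olfactory epithelium of untreated Brown Norway rats of 3 ages. The 19 pups of 4 litters (4 in L1 and 5 each in L2, L3 and L4), aged 3 to 5 days, gave 1 array each from one side of the nose. The 4 adult males, aged 9 weeks, and the 4 old males, aged 22 months, gave 2 arrays each, 1 per side (RNA samples A and B). The sex of the pups was not given in the sources used here, so that age and sex are not fully separated, and whole dissected epithelium was used, in which fewer cells of a type and less RNA per cell cannot be told apart.

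Macrophages are phagocytes that settle in nearly every tissue, where they engulf dying cells and debris. In the olfactory epithelium, where sensory neurons die and are replaced throughout life, they clear spent neurons and lie in the epithelium and in the lamina propria below it. Their survival depends on the receptor tyrosine kinase CSF1R and its ligands CSF1 and IL34, and much of their programme is set by the transcription factor PU.1, encoded by Spi1. The genes measured here belong to different layers of that programme. Cd68, Cd163, Mrc1 and Marco encode scavenger or lectin receptors, Tyrobp and Aif1 signalling and cytoskeletal partners, Cd14 and Lgals3 proteins that sense microbial or glycan ligands, and Fcgr2b the inhibitory receptor for IgG. Several are not particular to macrophages: Cd68, Csf1r and Tyrobp are also used by osteoclasts, Cd14 by neutrophils, Lgals3 by epithelial cells and Fcgr2b by B cells.

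The stretch of 250 bases before the start site was available from RefSeq (build GRCr8) for 6 of the 10 genes. It is shown, 5′ to 3′ on the strand of the gene, for Cd68 (chr10:54882442-54882691, minus strand), Mrc1 (chr17:82157475-82157724, plus strand) and Cd163 (chr4:158770524-158770773, plus strand), because these 3 genes had the highest levels in pups relative to old rats. Capitals mark the purine-rich letters GAGGAA, or their reverse complement TTCCTC, a core sequence that PU.1 is known to bind.
Cd68: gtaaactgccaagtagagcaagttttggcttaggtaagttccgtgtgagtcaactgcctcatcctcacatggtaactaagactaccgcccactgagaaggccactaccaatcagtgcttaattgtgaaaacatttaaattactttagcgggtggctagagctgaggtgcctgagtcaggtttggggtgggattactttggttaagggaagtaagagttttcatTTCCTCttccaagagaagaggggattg
Mrc1: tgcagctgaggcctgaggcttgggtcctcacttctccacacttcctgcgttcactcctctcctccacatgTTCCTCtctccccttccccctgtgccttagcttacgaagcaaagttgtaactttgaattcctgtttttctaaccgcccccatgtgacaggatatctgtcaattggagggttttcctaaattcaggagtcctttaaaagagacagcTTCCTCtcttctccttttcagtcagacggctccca
Cd163: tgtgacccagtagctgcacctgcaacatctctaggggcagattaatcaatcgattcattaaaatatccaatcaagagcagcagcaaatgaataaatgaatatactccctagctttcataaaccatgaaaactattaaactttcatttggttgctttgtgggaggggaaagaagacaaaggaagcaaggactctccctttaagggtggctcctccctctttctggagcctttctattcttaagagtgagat
The letters occurred 1 time in the window of Cd68, 2 times in that of Mrc1 and 0 times in that of Cd163. Of the 6 windows, which also covered Csf1r, Cd14 and Marco, 5 held them. Among all 33469 windows of this length, 23.3% did. A match of letters is a description and not a binding site.

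The array median of the background-subtracted intensity lay between 42.1 and 87.7 in pups, between 81.6 and 162 in adult rats and between 37.1 and 55.3 in old rats, with 24484 to 28361 transcripts above background per array. Levels are given as the log2 of the intensity over the array median, so that 1 unit is a doubling, and the 2 arrays of a rat were averaged. They can be compared between rats for a probe, but not between probes. There were 10 slides and 5 scan days. No slide or scan day with adult rats held another age, and the adult arrays were read with an earlier release of the software, so that adult age and batch cannot be told apart. Adult rats 13 and 14 lay on 1 slide and scan day, and rats 15 and 16 on another. L1 and old rats shared 1 scan day. Tests are those of limma in 1 fit over all 27 rats and 23668 transcripts expressed in every group, and a gene was called when the adjusted p was under 0.01. The median log2 change over all of these transcripts was 0.15 between pups and adults, −0.03 between pups and old rats and −0.18 between adults and old rats. With quantile normalization it was −0.03, −0.05 and −0.02.

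**Figure D1:**
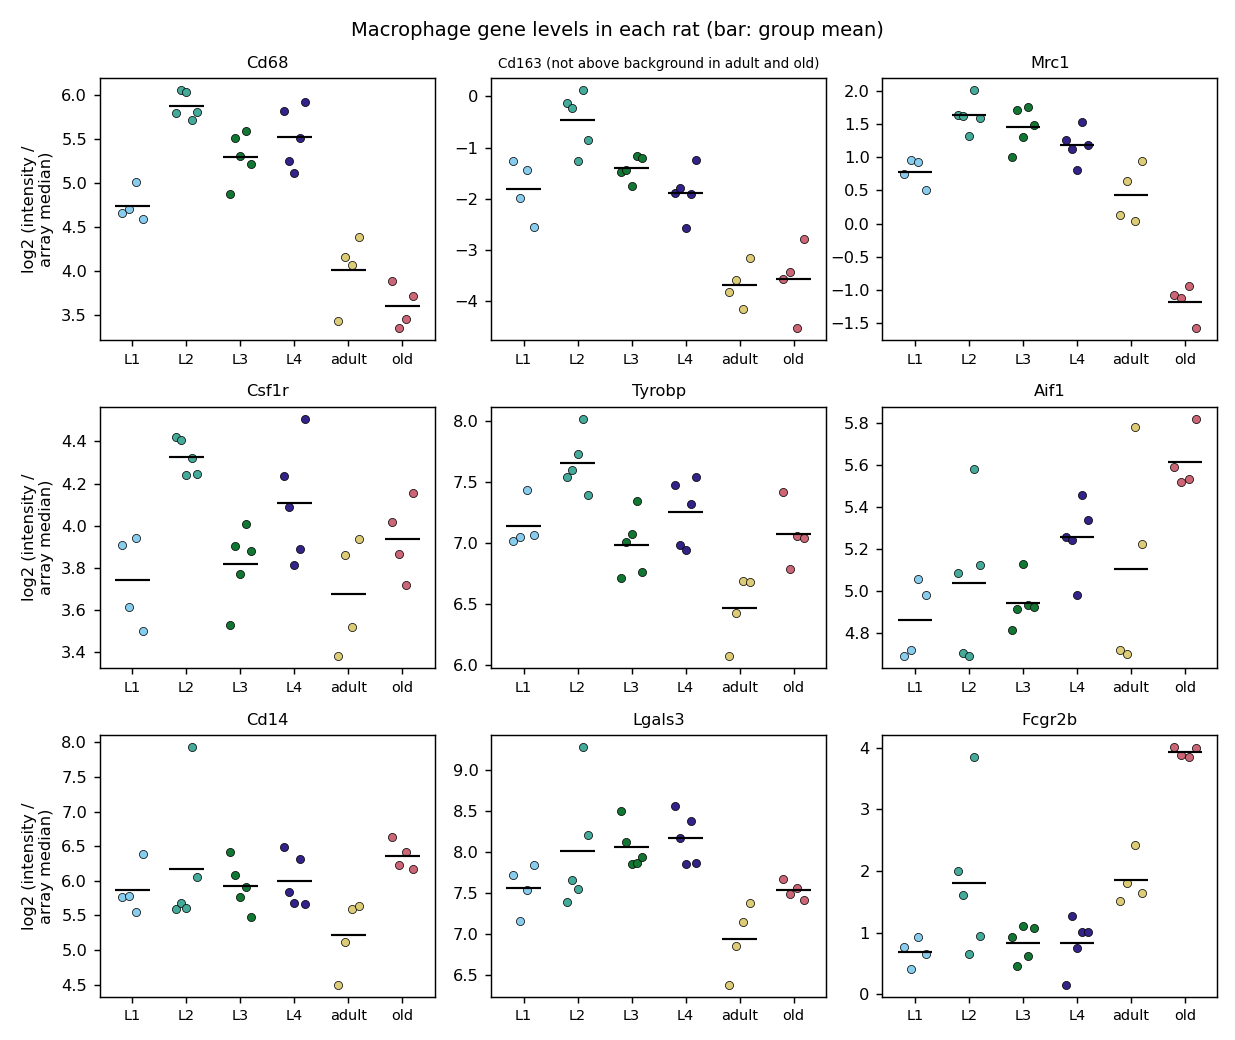
Level of 9 macrophage genes in each rat, as log2 of the intensity over the array median (vertical axes, which differ between panels), in litters L1 to L4 and in adult and old rats. Points are rats and bars are group means. By these means Cd68, Cd163, Mrc1 and Lgals3 were higher in every litter than in adult and old rats. Fcgr2b, Aif1 and Cd14 were highest in old rats. The highest point of L2 for Cd14, Lgals3 and Fcgr2b was rat 24.

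Of the 9 genes found by symbol, 8 were expressed in every group and entered the fit. The exception was Cd163. In newborn against adult rats, 4 of the 8 were called, all higher in pups (Cd68, Mrc1, Lgals3 and Tyrobp), where 39.7% of all transcripts were called higher in pups and 26.7% higher in adults. In newborn against old rats, Cd68 and Mrc1 were called higher in pups (28.4% of all transcripts) and Fcgr2b and Aif1 higher in old rats (31.5%). In adult against old rats, 1 gene, Mrc1, was called higher in adults (15.9%) and 2, Fcgr2b and Tyrobp, higher in old rats (31.4%). The median log2 change of the 8 genes was 0.78, 0.12 and −0.55 in the 3 comparisons. With 8 genes, these counts do not set them apart from all transcripts, and the genes did not move in 1 direction. With quantile normalization 2 of the 8, Cd68 and Mrc1, were called in newborn against adult rats.

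**Figure D2:**
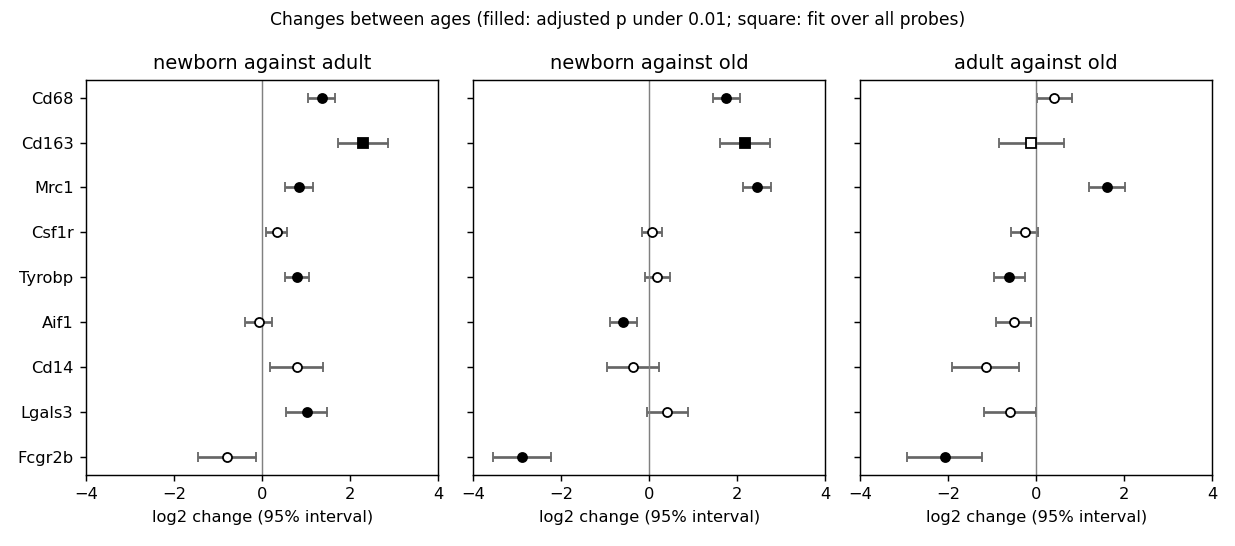
Log2 change of each macrophage gene between ages with its 95% interval, in each of the 3 age comparisons, positive where the first-named age was higher. Filled symbols had an adjusted p under 0.01, and the square marks Cd163, which was fitted over all probes because it was not above background in adult and old rats, so that its adult against old value has no measured direction. Mrc1 was the only gene called in all 3 comparisons.

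CD68 is a heavily glycosylated protein of the lysosome membrane and the usual histological stain for macrophages. Its probe (chr10:56495385-56495444, build rn3) was above background on all 35 arrays. The level ranged from 4.59 to 6.05 in the 19 pups, with a median of 5.50. It was 3.43, 4.16, 4.07 and 4.39 in the adult rats and 3.88, 3.35, 3.46 and 3.72 in the old rats. Every pup lay above every adult and old rat, while adults and old rats overlapped. Cd68 was 2.54-fold higher in pups than in adults (log2 change 1.35 ± 0.15, SE, adjusted p = 1.74e-08) and exceeded the old rats 3.37-fold (1.75 ± 0.15, adjusted p = 2.75e-10). Relative to the median of all transcripts these changes were 1.19 and 1.79. Adult against old rats differed by 0.41 ± 0.19, with a 95% interval from 0.01 to 0.81 (adjusted p = 0.0714), and without adult rat 13 the difference was 0.60 and was called (adjusted p = 0.00774). Within the scan day shared by L1 and old rats, Cd68 was still higher in pups, by 1.13 (adjusted p = 0.000125).

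Osteoclasts also carry much CD68, and a list of their markers was therefore read beside it. The summed level of 10 osteoclast markers lay between 1299 and 3577 times the array median in pups, between 568 and 1119 in adults and between 256 and 358 in old rats, with no overlap between ages. One bright probe, Acp5, the tartrate-resistant phosphatase, made up 83.6% to 90.8% of the sum in pups, 78.9% to 81.0% in adults and 64.6% to 74.4% in old rats. Without it the sums were 152 to 506 in pups, 120 to 212 in adults and 85.2 to 91.8 in old rats, so that pups and adults overlapped. Of 8 markers expressed in every group, 3 were called higher and 2 lower in pups than in adults (39.7% and 26.7% of all transcripts). The median log2 change was 0.13 against 0.15 for all transcripts. Against old rats, 5 were called higher and 2 lower in pups (28.4% and 31.5% of all transcripts). In adults, 7 were called higher than in old rats (15.9% of all transcripts). The markers called higher included Ctsk, the collagen-degrading cathepsin of osteoclasts. Ctsk was 29.1-fold higher in pups and 33.6-fold higher in adults than in old rats. Mmp9 was 19.4-fold and Acp5 8.94-fold higher in pups than in old rats. Ctsk did not follow Cd68 between pups and adults (log2 change −0.21, adjusted p = 0.51). After each group mean was removed, 2 other markers of this list were the genes most like Cd68 over the 27 rats. These were Atp6v0d2 (Pearson's r = 0.91) and Tcirg1 (r = 0.90), among 10433 named genes. None of the 10 was below background on all arrays. Their part in the Cd68 result was not tested.

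CD163, the scavenger receptor for haemoglobin bound to haptoglobin, marks resident macrophages that handle iron. The brighter of its 2 probes (chr4:160652157-160652858, rn3, a span of 702 bases for 60 bases of probe) was above background on 3 arrays of L1, 4 of L2, 4 of L3 and 2 of L4, and on 0 of 8 adult and 0 of 8 old arrays. The level ran from −2.56 to 0.12 in pups, with a median of −1.43. It was −3.82, −3.58, −4.16 and −3.14 in adults and −3.56, −3.42, −4.52 and −2.78 in old rats. Adult and old values, and those of pups on arrays not above background, have no measured order. Only a bound holds for the dim groups, which were set at the lowest level that counted as well above background on each array. The mean of the pups lay 1.97-fold above this level in adults and 1.71-fold above it in old rats. That mean includes pup arrays not above background, so that these folds are approximate and not strict bounds. In the fit over all 41012 probes the adjusted p was 1.76e-07 and 4.83e-07. The measured means were −1.39, −3.68 and −3.57. With L1 alone against old rats, on 1 scan day, the change of 1.77 was not called (adjusted p = 0.0149). The second probe (chr4:160651701-160651856) was dimmer, above background on 6 arrays of pups and on no other. Its pup mean lay 1.15-fold above the same level in adults and 1.005-fold above it in old rats, the last of which is hardly a difference. As this mean comes mostly from arrays not above background, no least fold could be given by this probe. Adult and old rats could not be compared for Cd163, as both were below background.

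Genes on either side of CD163 in haem handling were also measured. Of 10 genes for haemoglobin and haem handling, 8 were called higher in pups than in adults and 1 lower, where 39.7% and 26.7% of all transcripts were, and with quantile normalization 5 were called higher and 1 lower. Against old rats, 5 were called higher in pups and 1 lower (28.4% and 31.5% of all transcripts). Hp, which encodes haptoglobin, was 5.60-fold higher in pups than in adults and 4.34-fold higher than in old rats. Ftl1, the ferritin light chain, was 3.32-fold higher in pups than in adults, but 1.23-fold higher than in old rats. Slc40a1, the iron exporter ferroportin, was 3.33-fold and 3.71-fold higher in pups.

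MRC1, the mannose receptor or CD206, is a lectin of tissue macrophages that takes up glycoproteins. Its brighter probe (chr17:88503236-88503295, rn3) was above background on all arrays. The level ran from 0.51 to 2.01 in pups, with a median of 1.31. It was 0.13, 0.64, 0.04 and 0.94 in adults and −1.07, −1.12, −0.94 and −1.57 in old rats. Old rats lay apart from all others, and adults overlapped the lowest pups. Mrc1 was 1.78-fold higher in pups than in adults (log2 change 0.83 ± 0.16, adjusted p = 3.83e-05), 5.44-fold higher in pups than in old rats (2.44 ± 0.16, adjusted p = 1.35e-12) and 3.06-fold higher in adults than in old rats (1.61 ± 0.20, adjusted p = 2.74e-07). With the methods' t-test the first of these was not called (adjusted p = 0.0306). The second probe (chr17:88499989-88502596) was above background on 11 of 19 pup arrays, 3 of 8 adult and 0 of 8 old arrays. Its pup mean lay 1.31-fold above the lowest level that counted as well above background in old rats. That mean includes pup arrays not above background, so that the fold is approximate.

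Other scavenger and lectin receptors did not all share this order. Of 8 tested, 2 were called higher and 3 lower in pups than in adults (39.7% and 26.7% of all transcripts). Against old rats, 3 were higher and 3 lower in pups (28.4% and 31.5% of all transcripts). Lyve1, a hyaluronan receptor of lymphatic vessels and of some perivascular macrophages, was 6.59-fold higher in pups than in adults and 7.90-fold higher than in old rats. Cd36, a fatty acid and lipoprotein receptor that olfactory sensory neurons also use, was 5.17-fold and 6.11-fold lower in pups. Colec12, a membrane collectin, was 3.09-fold higher in pups and 2.44-fold higher in adults than in old rats. The probe paired with Marco, the scavenger receptor of alveolar and marginal zone macrophages (chrUn:9449917-9450079, rn3), was above background on 3 of 35 arrays, 1 each of L1, adult and old rats, so that no age difference could be given.

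CSF1R is the receptor on which most macrophages depend. Its brighter probe (chr18:57177463-57178164, rn3) was above background on all arrays. The level ran from 3.50 to 4.51 in pups, with a median of 3.94. It was 3.38, 3.86, 3.52 and 3.94 in adults and 4.02, 3.87, 3.72 and 4.16 in old rats. The 3 ages overlapped throughout. The log2 change was 0.32 for newborn against adult (95% interval 0.09 to 0.56, adjusted p = 0.0135), 0.06 for newborn against old (−0.18 to 0.30) and −0.26 for adult against old (−0.57 to 0.04), and none was called. The first was called in 6 other settings. Among them were the fits without L1 (0.41, adjusted p = 0.00324) and without adult rat 16 (0.41, adjusted p = 0.00557), L1 rat 12, L3 rat 26 or L4 rat 33. It also passed on the side A arrays alone (0.63, adjusted p = 6.37e-06), but on side B alone it was 0.014 and not called. It was also smaller on quantile-normalized levels, at 0.15. The second probe with the Csf1r name was above background on 0 of 35 arrays.

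Of the ligands, Csf1 was measured and no probe was matched to Il34. Csf1 was 2.09-fold higher in pups than in adults (adjusted p = 3.85e-06) and 1.69-fold lower in adults than in old rats (adjusted p = 0.0043), while pups against old rats were not called (0.31, adjusted p = 0.10). Spi1, which encodes PU.1 and was added for the promoters above, was not called in any comparison (log2 changes −0.32, 0.30 and 0.62, adjusted p = 0.165, 0.195 and 0.0476).

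TYROBP, also called DAP12, is the adaptor with an activation motif through which receptors such as TREM2 signal. Its main probe (chr1:85447221-85447280, rn3) gave levels from 6.71 to 8.02 in pups, with a median of 7.32. They were 6.07, 6.43, 6.69 and 6.69 in adults and 7.42, 6.79, 7.06 and 7.04 in old rats. Adults lay below all pups and all old rats. Tyrobp was 1.73-fold higher in pups than in adults (log2 change 0.79 ± 0.14, adjusted p = 1.29e-05) and 1.52-fold lower in adults than in old rats (−0.61 ± 0.17, adjusted p = 0.00445), while pups and old rats differed by 0.18 (95% interval −0.10 to 0.46). Quantile normalization reduced both calls below the threshold, to 0.35 (adjusted p = 0.0191) and −0.16 (adjusted p = 0.427). Adult against old rats was also not called for Tyrobp without adult rat 13 (−0.48, adjusted p = 0.0269), adult rat 14 (−0.59, adjusted p = 0.0116) or old rat 17 (−0.49, adjusted p = 0.0250), nor with slide (adjusted p = 0.0162) or scan day (adjusted p = 0.0478) as a random block, nor on side B alone (−0.42, adjusted p = 0.0742). A second probe with the Tyrobp name, on the opposite strand next to the main probe (chr1:85447153-85447212), lay between −0.61 and 0.51 in all 27 rats and was called in no comparison.

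Trem2, the partner of TYROBP that senses lipids and apoptotic cells, was also lowest in adults. It was 2.02-fold higher in pups than in adults, 2.83-fold lower in adults than in old rats and 1.40-fold lower in pups than in old rats, and all 3 were called (adjusted p = 3.80e-09, 1.73e-09 and 0.000217). Of the 7 DAP12 partners and kinases tested, 5 were called lower in pups than in old rats and 1 higher. The shares of all transcripts were 31.5% and 28.4%. Plcg2, the phospholipase downstream of Trem2, was 2.95-fold lower in pups than in old rats, and Vav1, an exchange factor, 1.92-fold lower.

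AIF1, or IBA1, is a calcium-binding protein of the actin cytoskeleton and a marker of microglia and macrophages. Its probe (chr20:3715789-3716370, rn3) gave levels from 4.69 to 5.58 in pups, with a median of 4.98. They were 4.72, 4.70, 5.78 and 5.22 in adults and 5.59, 5.52, 5.54 and 5.82 in old rats. Adults were split, with rat 15 near the old rats and rats 13 and 14 among the lowest pups. Rats 13 and 14 shared 1 slide and scan day, and rats 15 and 16 another. Rat and batch therefore cannot be told apart. Cd14, Lgals3 and Tyrobp were also lower in both rats of the first pair, but Cd68, Mrc1, Csf1r and Fcgr2b did not show this order. Aif1 was 1.51-fold lower in pups than in old rats (log2 change −0.59 ± 0.15, adjusted p = 0.00114). Adult against old rats gave −0.51 (adjusted p = 0.0254), and without adult rat 15 it was −0.73 and called (adjusted p = 0.000861). With litters in place of pups as replicates the pups' difference from old rats was not called (adjusted p = 0.0233).

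CD14 presents lipopolysaccharide to the receptor TLR4 and its partner LY96 on monocytes, macrophages and neutrophils. The brighter of its probes (chr18:29401636-29401695, rn3) gave levels from 5.48 to 7.93 in pups, with a median of 5.78. They were 4.49, 5.11, 5.60 and 5.64 in adults and 6.63, 6.23, 6.41 and 6.17 in old rats. All old rats lay above all adults, with pups between and across both. No comparison was called: the log2 change was 0.78 in newborn against adult (adjusted p = 0.0177), −0.37 in newborn against old (adjusted p = 0.259) and −1.15 in adult against old rats (adjusted p = 0.0102). Both comparisons with adults were close to the threshold and were called in other settings. Without rat 24 of L2, described below with the litters, newborn against adult was 0.67 (adjusted p = 0.00280) and adult against old −1.15 (adjusted p = 0.000279). With slide as a random block the adjusted p was 0.00840 and 0.00385, but there the 2 arrays of a rat entered as separate samples. With rats entered as a random block it was 0.00495 and 0.00176, and with litter means as replicates 0.00581 and 0.000546. The second probe (chr18:29402416-29402475) had the same signs, with 0.54, −0.27 and −0.81. Tlr4 was not called in any comparison (−0.01, 0.17 and 0.18). Ly96 was above background on 17 of 19 pup arrays, 5 of 8 adult and 3 of 8 old arrays and was not tested. Of the 6 Toll-like receptor partners tested, 3 were called lower in pups than in old rats (31.5% of all transcripts). Lbp, the serum protein that hands lipopolysaccharide to CD14, was 2.02-fold lower in pups than in adults and 2.69-fold lower than in old rats, and Ly86, the partner of CD180, 2.84-fold and 2.59-fold.

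LGALS3, or galectin 3, is a carbohydrate-binding protein of activated macrophages and of many epithelia. Its probe (chr15:23354647-23354706, rn3) gave levels from 7.15 to 9.28 in pups, with a median of 7.86. They were 6.38, 6.86, 7.14 and 7.37 in adults and 7.67, 7.49, 7.56 and 7.41 in old rats. All old rats lay above all adults, by little, and pups overlapped both. Lgals3 was 2.02-fold higher in pups than in adults (log2 change 1.01 ± 0.23, adjusted p = 0.000292). The other comparisons were not called, at 0.41 for newborn against old and −0.60 for adult against old. The first call was lost with quantile normalization (0.51, adjusted p = 0.0302). Of 5 other galectin genes tested, the galectin 3 binding protein included, 1 was called higher and 4 lower in pups than in old rats. The shares of all transcripts were 28.4% and 31.5%. Lgals1, a stromal galectin, was 3.24-fold and 4.33-fold higher in pups than in adults and old rats, while Lgals9 and Lgals3bp were 1.75-fold and 2.41-fold lower in pups than in old rats.

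FCGR2B is the receptor for IgG immune complexes that inhibits macrophages and B cells. Its probe (chr13:86823279-86823338, rn3) gave levels from 0.15 to 3.85 in pups, with a median of 0.93. They were 1.52, 1.81, 2.42 and 1.64 in adults and 4.01, 3.88, 3.85 and 3.99 in old rats. Old rats, with a standard deviation of 0.08, lay far above adults and 18 of the 19 pups, and the remaining pup, rat 24 of L2, equalled the lowest old rat to 2 decimals. Fcgr2b was 7.39-fold lower in pups than in old rats (log2 change −2.88 ± 0.32, adjusted p = 2.35e-08) and 4.24-fold lower in adults than in old rats (−2.08 ± 0.41, adjusted p = 0.000132). Both were called in every alternative and without any single rat. Newborn against adult, at −0.80 (adjusted p = 0.0268), was not called. Without rat 24 it was −0.93 and called (adjusted p = 0.000182). Only the first of these comparisons could be looked at within 1 scan day, where L1 was lower than old rats by 3.24 on the log2 scale (adjusted p = 2.06e-07).

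The other Fc receptors were read by separate probes, and whether probes of this family cross-hybridize was not tested. Of the 7 Fc gamma receptors and inhibitory phosphatases tested, 5 were called lower in adults than in old rats and 0 higher. The shares of all transcripts were 31.4% and 15.9%. With quantile normalization 2 of the 7 were called lower and 0 higher. In the main fit Fcgr1a, the high-affinity IgG receptor, was 2.23-fold lower in adults, Fcgr2a 2.26-fold and the inhibitory receptor Pirb 2.06-fold. Fcgr1a was also 1.58-fold higher in pups than in adults, unlike Fcgr2b. B cells, which share Fcgr2b, had 7 markers with a probe, of which 2 were expressed in every group. Their summed level was 12.8 to 20.4 in pups, 8.51 to 11.3 in adults and 13.5 to 14.5 in old rats, and Cd79a alone made up 61.2% to 93.6% of it. The summed level of 11 T and NK cell markers was 53.7 to 62.9 in old rats, above all adults (25.0 to 48.5) and overlapping the highest pups (22.4 to 55.4). Cd3g alone made up 56.2% to 85.8% of it. Without Cd3g the sums were 16.0 to 19.6 in old rats, 6.54 to 21.3 in adults and 4.09 to 10.7 in pups. Old rats then overlapped adults and lay above all pups. Cd8b was 4.26-fold and Cd3d 2.81-fold lower in pups than in old rats. The part of these cells in the Fcgr2b result was not tested.

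The litters differed. The F test over the 4 litters called 4 of the 8 genes (Cd68, Mrc1, Csf1r and Tyrobp), where 37.9% of all transcripts were called. Cd68 was 4.74 ± 0.18 in L1 (SD, n = 4), 5.88 ± 0.15 in L2 (n = 5), 5.29 ± 0.28 in L3 (n = 5) and 5.52 ± 0.35 in L4 (n = 5), with an adjusted p = 0.000149. Every L2 pup exceeded every L1 and L3 pup. Mrc1 was 0.79 ± 0.21, 1.64 ± 0.24, 1.46 ± 0.31 and 1.18 ± 0.26 in the same order (adjusted p = 0.00313). Csf1r was 3.74 ± 0.22, 4.33 ± 0.09, 3.82 ± 0.18 and 4.11 ± 0.28 (adjusted p = 0.00272), and Tyrobp 7.14 ± 0.19, 7.66 ± 0.23, 6.98 ± 0.26 and 7.25 ± 0.28 (adjusted p = 0.0054). All 4 genes were highest in L2. Cd163 was also highest there, at −0.47 ± 0.57 against −1.80, −1.41 and −1.88 in L1, L3 and L4 (adjusted p = 0.00419 in the fit over all probes). These means include arrays not above background, and the second Cd163 probe was not called between litters (adjusted p = 0.0840). Cd163 is not among the 8 genes of the alternatives given next. L1 was scanned on another day than L2 to L4, and slides held mostly 1 litter. With slide or scan day as a random block none of the 8 genes was called between litters, and none without L1 (adjusted p = 0.0557 for Cd68). Without L2, an alternative chosen after seeing the data, 1 gene, Cd68, was called (adjusted p = 0.00972). Litter and slide therefore cannot be told apart for most pups. Of the 2 slides that held more than 1 litter, 1 paired L3 rat 28 with L2 rat 24. On it rat 24 was higher for Cd68, Csf1r, Mrc1 and Tyrobp, by 0.41, 0.55, 0.70 and 0.94, without a test. Rat 24 lay within its litter for Csf1r and slightly below it for Cd68. It lay above its litter for Mrc1 and Tyrobp and is no measure of L2 for these. On the other, with 1 rat of each litter and no test, L3 rat 26 was lower than L4 rat 34 for Cd68, Csf1r, Mrc1 and Tyrobp, by 0.64, 0.36, 0.53 and 0.60.

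One pup stood apart from its litter. Rat 24 of L2, chosen after its values were seen, had a Cd14 level of 7.93, where the other 18 pups lay between 5.48 and 6.48. Its Fcgr2b was 3.85 against 0.15 to 2.0, its Lgals3 9.28 against 7.15 to 8.57 and its Tyrobp 8.02 against 6.71 to 7.73. On the main probes, rat 24 was the highest of the 19 pups for these genes and for Cd163, Mrc1 and Aif1. It was not the highest for Cd68 (5.71, with 12 of 18 pups below) or Csf1r (4.32, with 15 of 18 below). Nor was it the highest on the dimmer second probes of Cd163 (−1.37, with rat 21 at −0.80) and Mrc1 (−1.30, with rat 11 at −1.20). All 6 genes tested of the monocyte and activation list were also highest in this pup, from Arg1, at 3.67 against 3.41 in the next pup, to Il1b. Its Il1b, the pyrogenic cytokine, was 9.51 against 1.57 to 5.92 in the other pups, its Ccl3, a chemokine, 7.86 against −0.20 to 4.10, and its Il1rn, the antagonist of the interleukin 1 receptor, 7.30 against 0.93 to 3.64. Tlr2 was 5.86 against 1.98 to 3.16. The neutrophil genes S100a8, S100a9 and Lcn2 were 6.06, 6.97 and 9.11, above the highest other pups at 4.96, 5.68 and 7.87, while Prtn3, a protease of neutrophil precursors, was at 2.98 with 4 of 18 pups below it. The summed level of 10 neutrophil markers was 760 in rat 24, most of it from Lcn2, and 110 to 297 in the other 18 pups, 35.9 to 89.7 in adults and 78.0 to 199.6 in old rats. Markers of other cells of the tissue also lay at the edge of the pups in rat 24. It was the lowest of the 19 pups for 4 of 6 genes of immature neurons, among them Dcx (7.57 against 7.88 to 9.60), and for 3 of 9 genes of mature neurons, among them Rtp1 (0.83 against 1.596 to 2.73). Of 8 genes of sustentacular and gland cells it was lowest for Cyp2a3 and Cyp2g1 and highest for Krt8 and Krt18. The part of neutrophils and of the other cells in its Cd14 level was not tested.

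**Figure D3:**
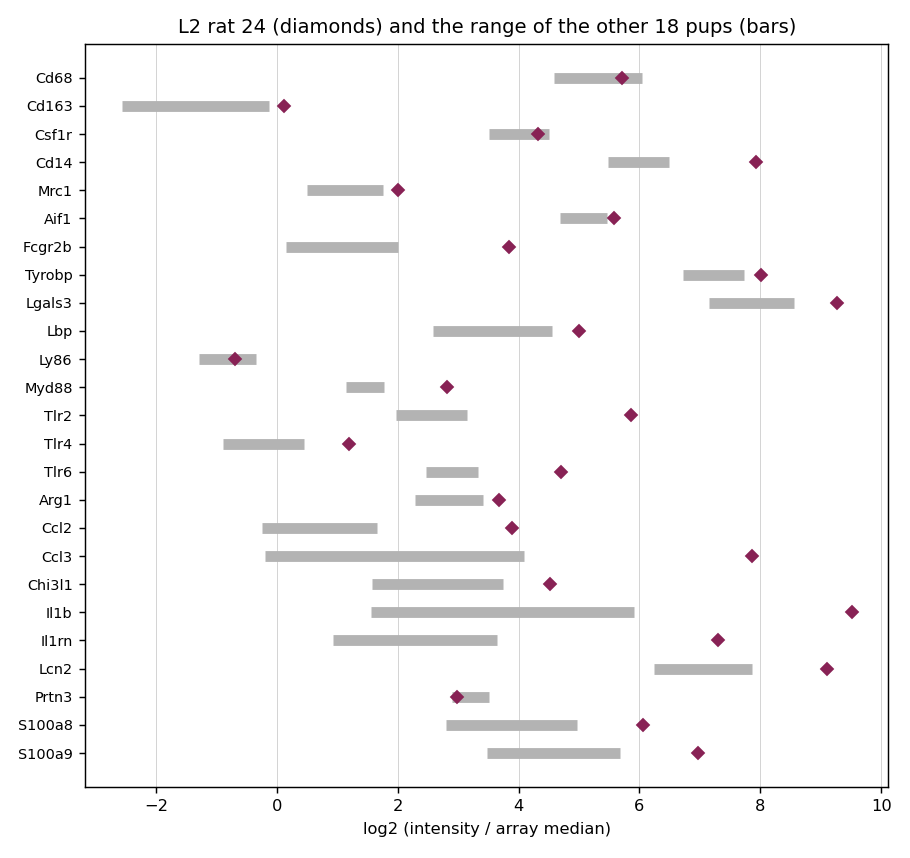
Level of the macrophage genes and of genes of Toll-like receptor signalling, monocyte activation and neutrophils in rat 24 of L2 (diamonds) beside the range of the other 18 pups (bars), as log2 of the intensity over the array median. Rat 24 was above all others for Cd14, Fcgr2b, Lgals3, Il1b, Ccl3 and Il1rn, and within the range for Cd68 and Csf1r.

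Within ages and litters, some pairs of genes varied together more closely than others. After each group mean was removed, the deviations of Cd68 over the 27 rats correlated with those of Tyrobp (Pearson's r = 0.79, Spearman's rho = 0.76) and Csf1r (r = 0.78, rho = 0.73). Cd14 correlated with Lgals3 (r = 0.93, rho = 0.87), and for neither of these was r far from 0 with Cd68 (r = 0.05 and 0.03) or Csf1r (−0.09 and −0.01). Tyrobp stood between these pairs, at r = 0.53 with Csf1r, 0.45 with Cd14 and 0.35 with Lgals3. Aif1 likewise gave 0.52 with Tyrobp, 0.59 with Cd14 and 0.57 with Lgals3. Fcgr2b correlated with Aif1 (r = 0.61, rho = 0.53), and without rat 24 this r was 0.48. It also correlated with Cd14 (r = 0.57, rho = 0.07), but without rat 24 that r was 0.11. Without that rat, Cd68 with Tyrobp gave r = 0.88 and Cd14 with Lgals3 r = 0.88. These are descriptions over rats that share slides, and all levels share the array median.

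**Figure D4:**
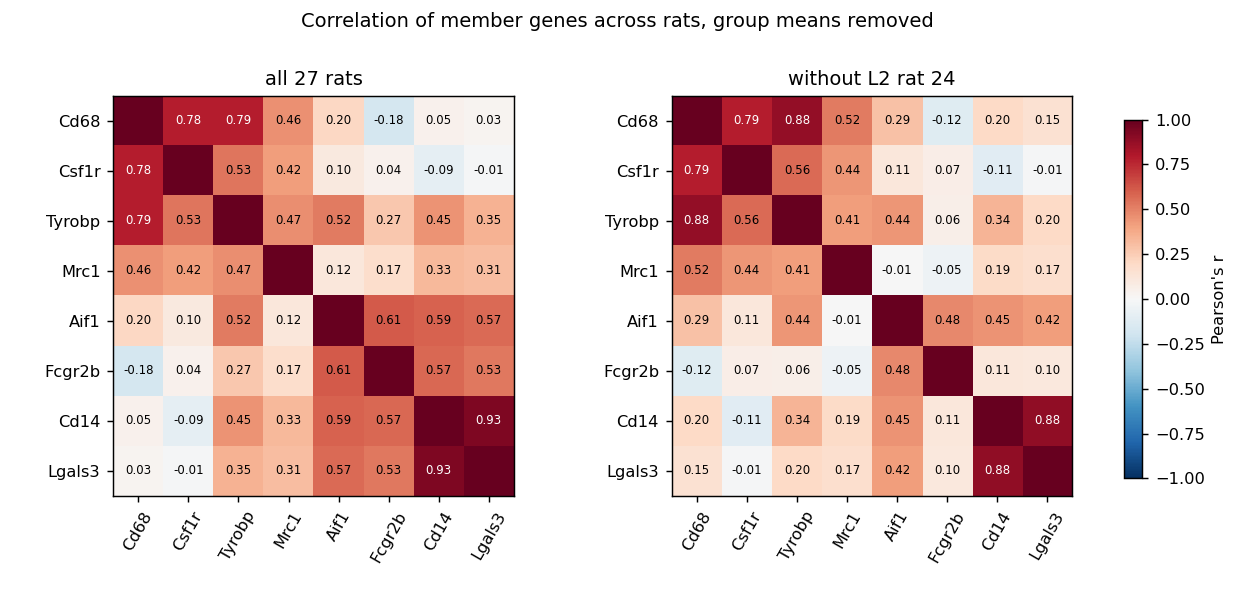
Pearson's correlation between macrophage genes across 27 rats after the mean of each litter or age group was removed, with all rats (left) and without L2 rat 24 (right). The highest values are those of Cd14 with Lgals3 (0.93 and 0.88) and of Cd68 with Tyrobp (0.79 and 0.88) and Csf1r (0.78 and 0.79), and Tyrobp and Aif1 have intermediate values with Cd14 and Lgals3.

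The genes whose levels over all 27 rats were most like those of each member, among 10433 named genes expressed in every group, are given next. Over all rats, r includes the age differences. For Cd68 they were Ctsz (0.98), Syde1 (0.97) and Tcirg1 (0.96), the last a subunit of the proton pump of osteoclasts. For Mrc1 they were Pcsk5, Mmp14 and Col6a1 (all 0.96), genes of the extracellular matrix and its processing. For Tyrobp they were Csf1 (0.93), Dok3 (0.91) and Arhgap9 (0.91), and for Csf1r, Gpnmb (0.83), Dapk2 (0.80) and Csf1 (0.80). For Cd14 they were Gpx2 (0.96), Batf (0.96) and S100a6 (0.93), and for Lgals3, Anxa1 (0.95), Cblc (0.93) and Ets2_mapped (0.93). For Aif1 they were RT1-M3-1, Casp1 and Psmb8 (0.87, 0.87 and 0.86), and for Fcgr2b, Sema4a (0.92), Slc15a3 (0.91) and Ppm1j (0.90).

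The 2 sides of the nose could be set side by side in adult and old rats, with both arrays of a rat on the same slide. In adults, sample A was lower than sample B in 4 of 4 rats for Cd68, Csf1r, Mrc1 and Tyrobp. The mean difference was −0.60 for Cd68, −0.62 for Csf1r, −0.52 for Mrc1 and −0.44 for Tyrobp on the log2 scale. Csf1r, called in no age comparison of the main fit, differed between adult and old rats by −0.62 on side A (adjusted p = 0.000339) and by 0.09 on side B (adjusted p = 0.677). In old rats the sign varied, with A lower in 2 of 4 rats for Cd68, Csf1r and Tyrobp and in 3 of 4 for Mrc1. Lgals3 and Cd14 showed no such order in adults, with A lower in 2 and 1 of 4 rats.

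Other genes of macrophages and phagocytes gave a wider view. Of 15 genes tested for phagocyte adhesion, the oxidase and the lysosome, 10 were called lower in adults than in old rats and 1 higher. The shares of all transcripts were 31.4% and 15.9%. With quantile normalization 6 of the 15 were called lower and 1 higher. In the main fit their median log2 change was −0.62 against −0.18 for all transcripts. Lyz2, lysozyme of macrophages and neutrophils, was 2.95-fold lower in adults and Ncf4, a subunit of the oxidase, 2.76-fold. Ctss, the cathepsin of antigen-presenting cells, was lower in pups than in adults (2.22-fold) and old rats (4.68-fold). Of 9 genes of resident macrophages and microglia, 5 were lower in adults than in old rats and 0 higher. The shares of all transcripts were 31.4% and 15.9%. The 5 genes included Adgre1, an adhesion receptor used as a macrophage marker, at 2.89-fold. Hpgds, a prostaglandin D synthase of macrophages and mast cells, was 3.91-fold higher in pups than in adults. Cd52, a surface glycoprotein of leukocytes, was 14.1-fold higher in pups than in adults and 3.91-fold higher than in old rats. Among 6 genes of monocytes and activation, Il1b was called lower in adults than in old rats (7.61-fold, adjusted p = 0.00892), and Arg1 was 3.06-fold higher in pups than in adults. Siglec1 and Vsig4, receptors of resident macrophages, were above background on no array.

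**Figure D5:**
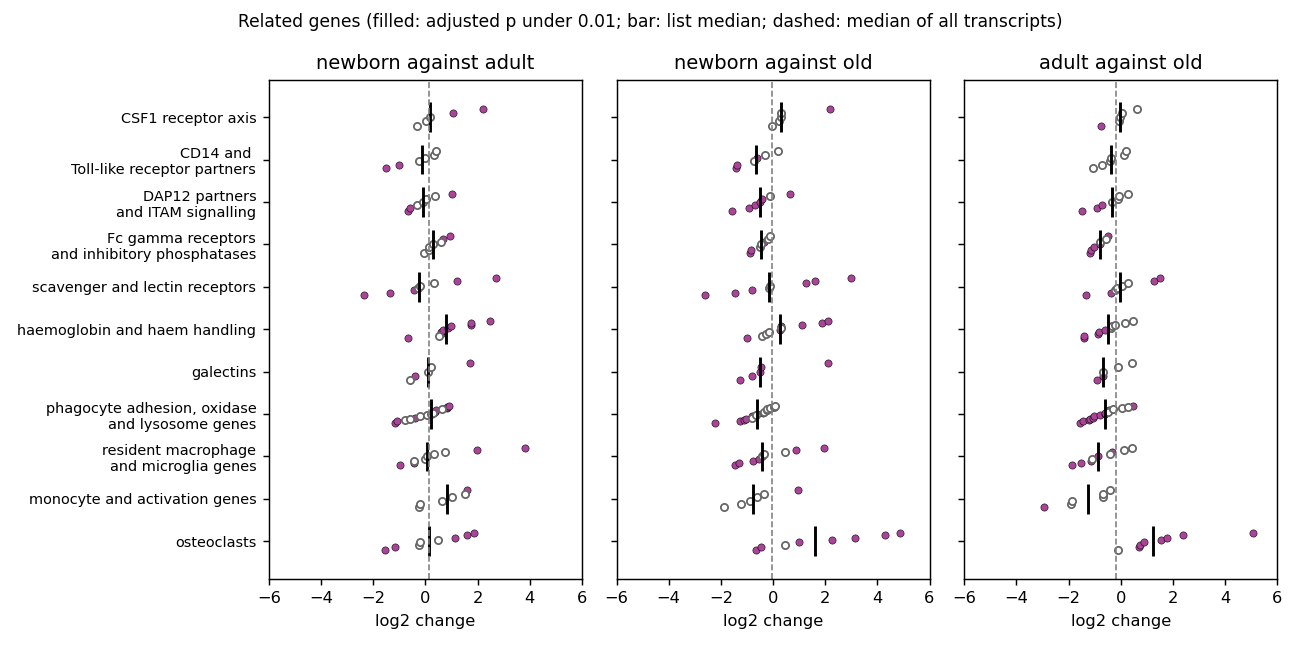
Log2 change of single genes in 10 lists related to macrophages and in osteoclast markers (rows), for the 3 comparisons. Filled points had an adjusted p under 0.01, bars are list medians, and the dashed line is the median of all transcripts. The median of osteoclast markers lies to the right in newborn and adult against old rats, while those of phagocyte and resident macrophage genes lie to the left in adult against old rats.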

How the data were processed

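Gene expression was measured with 1-colour Agilent whole-genome rat arrays (41012 probes, 60 bases each) on 35 RNA samples of 27 rats. The authors extracted spot intensity with Agilent Feature Extraction (releases 9.5.1.1 and 9.5.3.1), and the deposited intensity is background-subtracted but not scaled between arrays. The authors also deposited a table of ratios, scaled first to the array median and then to the median of the probe, which was used as an alternative.

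Here, spots marked as outliers were left out (4189 values on 732 probes), intensities under 0.01 were set to 0.01, each array was divided by its median, and log2 levels of both sides of a rat were averaged. A probe was tested when above background on at least 3 arrays of each litter and at least 6 of 8 arrays of adult and of old rats (23668 probes). One limma fit (limma 3.58.1, R 4.3.3) held 6 groups, newborn being the mean of 4 litters, with Benjamini-Hochberg adjustment over all probes tested. A call is an adjusted p under 0.01. Where a gene had several probes, the brightest stood for it. From each related list, up to 3 called genes with the largest change are named, and for each macrophage gene the 3 genes of highest Pearson correlation. Csf1, Il34, Tlr4, Ly96 and Trem2 are always given. A gene that this rule would name is not reported here. The genes and lists were chosen with earlier results of these data known. Alternatives covered scaling, background correction, filters, blocks, sides, the methods' t-test and leaving out each rat. The fit was tested on simulated data. Probe positions are in build rn3 and were not matched to exons here.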

Additional observations from a re-analysis of the deposited data

Results flagged for a closer look

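In 54 groups of 4 or 5 rats examined for a value far from the rest, 2 were found, and chance gives about 1 in 20 groups. The Cd14 level of rat 24 in L2 was 7.93, and the nearest of the other 4 pups of the litter was at 6.05, a gap of 0.80 of the range. Rat 24 was on another slide and scan day than these pups. The Tyrobp level of rat 11 in L1 was 7.43, with the nearest of the other 3 pups at 7.07, a gap of 0.89 of the range.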

How the results depend on the processing

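Of the 8 macrophage genes, 4 were called in newborn against adult rats, 2 with quantile normalization or the methods' t-test, and 4 to 6 when 1 rat was left out. In newborn against old rats 4 were called when any 1 rat was left out. In adult against old rats 3 were called, 6 with every array as a sample, and 2 to 5 when 1 rat was left out (5 without adult rat 15). Between litters 4 were called, 2 with the 75th percentile, every array as a sample or side B only, 1 with the rat as a random block, 0 with slide or scan day as a random block or without L1, 1 without L2 (chosen after seeing the data), and 3 to 4 when 1 rat was left out. Of 78 related genes, 37 were called in adult against old rats, near the share of all transcripts (47.2%), 20 with scan day as a random block, 16 with the methods' t-test, and 23 to 42 when 1 rat was left out (23 without adult rat 13). Both adult and old rats were below background for Cd163, so the sign of their fitted difference has no meaning, and it turned (−0.11) with quantile normalization (0.059), normexp (0.084), side B (0.42), without adult rat 15 (0.054) and without old rat 20 (0.16, with a range from −0.42 when 1 rat was left out). It turned for Csf1r in newborn against old rats (0.06) within 1 scan day (−0.20), without L2 (−0.049) and without old rat 19 (−0.013, with values up to 0.13 when another rat was left out), and in adult against old rats (−0.26) on side B (0.093). It also turned for Lgals3 in adult against old rats with normexp (0.017) and for Aif1 in newborn against adult rats without adult rat 15 (0.14, the lowest value on leaving out 1 rat being −0.22). None of these was called, and the cause was not tested. Cd14, not called, was called in 6 settings in newborn against adult rats and in 14 in adult against old rats, blocks on slide or rat and litter means among them. The slide block took the 2 arrays of a rat as separate samples. Csf1r, not called in the main fit, was called in 6 settings in newborn against adult rats, side A and the fit without L1 among them. The Tyrobp call in adult against old rats was lost without adult rat 13 (adjusted p = 0.0269), adult rat 14 (0.0116) or old rat 17 (0.0250). Over all transcripts, 9392 were called higher and 6315 lower in pups than in adults, against 7489 and 8338 with quantile normalization, and 3755 higher and 7425 lower in adults than in old rats, against 5416 and 5346. No paired analysis was possible because no replicate number is shared between groups. Signal over background limits Cd163, Marco and the second probes of Csf1r and Mrc1.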

Other observations

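Markers of other cells of the tissue gave the setting in which the macrophage genes were read. All 9 tested genes of mature olfactory sensory neurons were called lower in pups than in adults and than in old rats. Their median log2 changes were −2.24 and −2.63. Of all transcripts, 26.7% and 31.5% were called lower in pups in these comparisons. Of 6 genes of immature neurons, 5 were called higher in pups than in adults and 1 lower. The shares of all transcripts were 39.7% and 26.7%. With quantile normalization 2 of the 6 were called higher and 1 lower. Of 5 mast cell genes, 4 were called lower in pups than in adults and 4 lower than in old rats. The shares of all transcripts were again 26.7% and 31.5%. All 4 tested neutrophil genes were called higher in pups than in adults (39.7% of all transcripts).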
